A study of Mus musculus with 7 samples.

Results

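The DNA methyltransferases, the Tet enzymes and 2 proteins that work with them were followed across ES cells, the germ layers derived from them and adult tissues. The set was fixed by name, with earlier results of these data known. It holds 9 genes: Dnmt1, Dnmt3a, Dnmt3b, Dnmt3l, Uhrf1, Tet1, Tet2, Tet3 and Tdg. Of these, 8 had at least 1 probe set annotated to that gene alone, with 20 such probe sets in all, out of 18194 genes measured in this way. Tdg had none and is described apart. RNA was hybridized to GeneChip arrays, with 1 array for each of 7 conditions. SK7_ESC stands for the SK7 ES cell line before differentiation. It is of a male mouse and carries a GFP reporter transgene under the Pdx1 promoter. From SK7 came, in culture, ectoderm (Ect), endoderm (End) and paraxial mesoderm (Pme), which therefore carry the same reporter. The times of differentiation are not stated in the sources read. Adult tissues were Brain, Liver and skeletal muscle (Sk_muscle), all of male ICR mice older than 9 weeks, and the number of animals behind each array is not stated. All 4 cultured samples go back to 1 ES cell line, and the labels give male and ICR for every sample. Values are deposited as linear signals per probe set. Where a gene had several probe sets, the one brightest on average (by mean log2 signal) is called its main probe set and gives its value, and the others are given beside it. Signals under 50 count as background here. A gene was called higher or lower where 1 signal was 2 times the other or more, with any signal under 50 raised to 50 first, so that such a fold is a lower bound. There were no replicates, so that no test was possible, and precision is limited by having so few arrays. Signals of different probe sets are not set against each other.

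DNA methylation is written by 2 kinds of activity. Dnmt3a and Dnmt3b are the de novo methyltransferases, which methylate CpG sites that carried no mark, and Dnmt3l, which has no catalytic activity of its own, stimulates them. Dnmt1 is the maintenance enzyme, which copies the mark to the new strand behind the replication fork, and Uhrf1 binds hemimethylated CpG and brings Dnmt1 there. Tet1, Tet2 and Tet3 oxidize 5-methylcytosine to 5-hydroxymethylcytosine and further forms, which the glycosylase Tdg can cut out for base excision repair. Mouse ES cells are known for expressing both the de novo machinery and Tet enzymes.

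The arrays carried the markers of their labels with 1 exception. Genes above background numbered between 7810 in Liver and 9075 in Brain. All 8 pluripotency genes examined had their highest signal in SK7_ESC, all 8 ectoderm genes in Ect, all 8 endoderm genes in End, all 7 hepatocyte genes in Liver and all 7 muscle genes in Sk_muscle, and 6 of 7 neuron genes did so in Brain. Of the 8 ectoderm genes, 7 were above background in Ect. Pax6 was under background in every array, at 30.5 in Ect, so that its order carries no information. Nes, at 76.5 in Ect, was within 2-fold of Liver, at 69.8. Of 8 paraxial mesoderm genes, 3 were above background in Pme. The defining factors Tbx6, Msgn1 and Meox1 had 17.7, 2.7 and 16.0 there, all under background, while the receptor gene Pdgfra had 1062.2. Of 8 fibroblast genes, 6 were above background in Pme, and their summed signal was 8600.8 there, against 763.7 in SK7_ESC, 2132.5 in Ect and 536.7 in End. In such bulk samples fewer cells of a type and less RNA per cell cannot be told apart.

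Promoters are shown for Dnmt1, Uhrf1, Dnmt3a, Dnmt3l and Tet1, and not for the other members. All 9 members had an entry in the RefSeq promoter windows of GRCm38.p6, 300 bases that run from 250 before to 50 after an annotated start, with 16 windows among them. Which of these starts was used in these samples was not measured. Dnmt1 and Uhrf1 were both bright in every cultured array and low in the tissues, and their windows with most CpG are given with capitals for the 8-base E2F motif TTTNNCGC on either strand. In Dnmt1, 2 of the 3 matches overlap and appear as 1 stretch.
Dnmt1, chr9:20952574-20952873, minus strand: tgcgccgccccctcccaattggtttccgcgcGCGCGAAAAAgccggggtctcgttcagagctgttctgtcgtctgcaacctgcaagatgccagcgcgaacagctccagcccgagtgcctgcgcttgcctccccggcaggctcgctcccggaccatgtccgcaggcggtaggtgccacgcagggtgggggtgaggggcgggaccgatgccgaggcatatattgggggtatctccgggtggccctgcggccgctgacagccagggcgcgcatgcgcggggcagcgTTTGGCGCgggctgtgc
Uhrf1, chr17:56304063-56304362, plus strand: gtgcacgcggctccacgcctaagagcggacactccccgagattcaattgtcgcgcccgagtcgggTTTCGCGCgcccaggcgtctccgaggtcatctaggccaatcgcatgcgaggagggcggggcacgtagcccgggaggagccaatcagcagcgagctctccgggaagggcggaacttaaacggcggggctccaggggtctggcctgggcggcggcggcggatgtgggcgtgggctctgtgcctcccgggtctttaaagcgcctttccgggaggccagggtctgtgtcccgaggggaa
The motif was present in 3 of the 16 windows, 1 of Dnmt1 and both of Uhrf1, and in 5.17% of all 32851 windows of the table. The motif holds a CpG, and the 2 windows shown hold 33 CpG each, against a median of 7 over all windows. The 5.17% is therefore not a share over windows of like CpG content. A match of letters is a description and not a site. Dnmt3a has starts 84764 bases apart, and its probe sets gave 2 unlike profiles, so that the windows of the first and of the last start are given with every CpG in capitals. They hold 46 and 18 CpG.
Dnmt3a first start, chr12:3806730-3807029, plus strand: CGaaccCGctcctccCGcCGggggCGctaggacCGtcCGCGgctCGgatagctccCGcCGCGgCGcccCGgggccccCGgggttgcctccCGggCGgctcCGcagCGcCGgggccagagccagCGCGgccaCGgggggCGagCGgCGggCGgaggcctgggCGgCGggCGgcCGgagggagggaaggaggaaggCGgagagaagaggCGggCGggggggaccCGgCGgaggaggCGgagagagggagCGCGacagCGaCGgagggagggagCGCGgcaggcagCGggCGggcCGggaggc
Dnmt3a last start, chr12:3891494-3891793, plus strand: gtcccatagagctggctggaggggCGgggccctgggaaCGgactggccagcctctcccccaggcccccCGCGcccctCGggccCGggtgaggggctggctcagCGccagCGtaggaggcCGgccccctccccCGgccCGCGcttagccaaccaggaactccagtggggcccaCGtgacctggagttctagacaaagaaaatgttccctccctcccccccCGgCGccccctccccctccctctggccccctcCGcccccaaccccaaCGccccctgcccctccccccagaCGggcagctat
The members that stood highest in ES cells, Dnmt3l and Tet1, are given in the same way.
Dnmt3l, chr10:78042037-78042336, plus strand: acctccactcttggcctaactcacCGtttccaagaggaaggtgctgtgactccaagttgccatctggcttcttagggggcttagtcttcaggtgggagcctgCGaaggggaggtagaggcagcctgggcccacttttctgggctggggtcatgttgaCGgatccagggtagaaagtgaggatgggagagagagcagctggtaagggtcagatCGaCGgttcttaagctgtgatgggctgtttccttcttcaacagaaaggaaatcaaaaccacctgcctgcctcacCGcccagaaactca
Tet1, chr10:62887275-62887574, minus strand: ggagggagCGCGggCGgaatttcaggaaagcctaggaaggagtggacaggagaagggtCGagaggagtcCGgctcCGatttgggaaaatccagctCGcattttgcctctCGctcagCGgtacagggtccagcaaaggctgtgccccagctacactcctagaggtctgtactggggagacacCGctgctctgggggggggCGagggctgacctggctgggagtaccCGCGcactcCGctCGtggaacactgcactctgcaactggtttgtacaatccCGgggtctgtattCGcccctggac
The windows of Dnmt3l held 6, 4 and 3 CpG, all fewer than the median of 7 over all windows, and Dnmt3l was the member of which this held for every window. That of Tet1 held 17, and the largest number was 57 in Tet2.

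Compared with ES cells, members of the set were lower or within 2-fold in every other array when their main probe sets were read. In Ect, 4 of the 8 measured members were lower than in SK7_ESC, against 4.89% of all genes, and 0 were higher, against 6.62%. In End, 3 were lower (3.81% of all genes) and 0 higher (4.89%). In Pme, 5 were lower (4.55%) and 0 higher (6.74%). Tissues differed from ES cells in many more genes. In Brain, 5 members were lower (15.0% of all genes) and 0 higher (14.9%). In Liver, 6 were lower (16.0%) and 0 higher (12.2%), and in Sk_muscle 5 were lower (15.2%) and 0 higher (12.7%). Across all 3 germ layers, 3 members were lower, Dnmt3l, Tet1 and Tet2, against 2.03% of all genes. Lower in all 3 tissues were 5, Dnmt1, Dnmt3b, Dnmt3l, Uhrf1 and Tet1, against 8.89%. These comparisons share the SK7_ESC array. Because the set was chosen with earlier results of these data known, the counts beside the shares of all genes are descriptions.

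**Figure D1:**
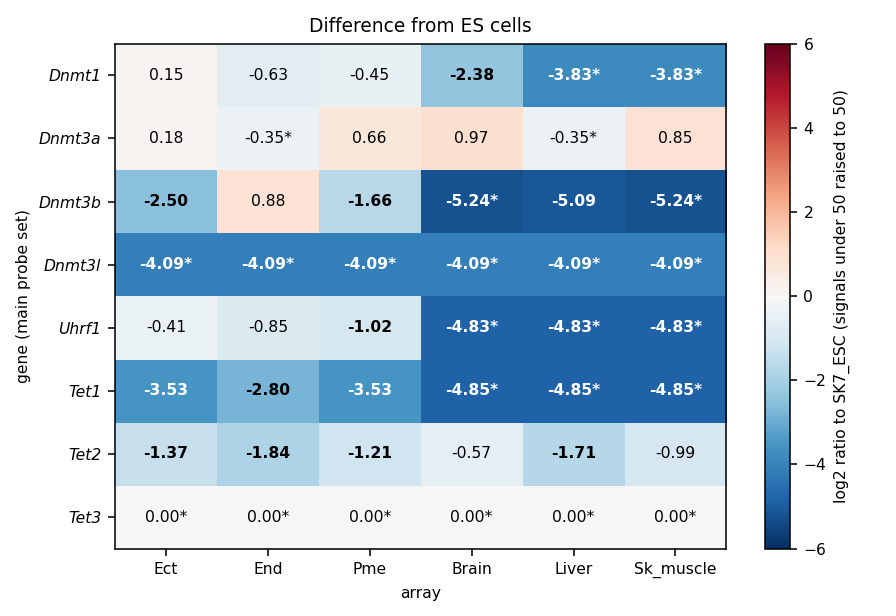
Log2 ratio of each array (columns, 1 array each) to SK7_ESC for the main probe set of the 8 measured genes (lines), with signals under 50 raised to 50. Bold values were called at 2-fold, and an asterisk marks a ratio with at least 1 signal under background. Dnmt3l is at -4.08 throughout, a bound, and Dnmt3b is at -2.50 in Ect and 0.88 in End.

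Dnmt3l and Tet1 stood highest in ES cells. They were the 2 members of 8 called higher in SK7_ESC than in each of the other 6 arrays, as were 1.19% of all genes. Dnmt3l, the cofactor of the de novo enzymes, reached 848.4 in SK7_ESC but 15.0 in Ect, 1.6 in End, 7.5 in Pme, 8.3 in Brain, 17.9 in Liver and 11.2 in Sk_muscle. It was thus above background in ES cells alone, at least 17.0-fold higher there than elsewhere, and the order of the other 6 signals carries no information. This rests on 1 probe set, whose identifier ends in _s_at and so marks sequence shared by more than 1 transcript. Tet1, the Tet enzyme best known from ES cells, had 1444.1 in SK7_ESC, 124.7 in Ect, 207.8 in End, 125.3 in Pme, 49.1 in Brain, 2.9 in Liver and 15.8 in Sk_muscle. With this main probe set it differed from Dnmt3l in that it stayed above background in all 3 germ layers. It was 11.6-fold, 6.95-fold and 11.5-fold lower than in ES cells in Ect, End and Pme. It was at least 28.9-fold lower in each tissue. Ect, End and Pme followed each other within 2-fold and are not told apart. Of its 3 further probe sets, 2 also had their highest signal in SK7_ESC, at 868.7 and 395.1, with at most 87.6 and 59.1 elsewhere. Both were under background in Ect, at 43.7 and 24.5, and the dimmer of them also in Pme, at 34.7. Signal above background in all 3 layers thus depended on the probe set. The remaining probe set was under background in every array, at 32.6 in SK7_ESC and at most 15.6 elsewhere.

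**Figure D2:**
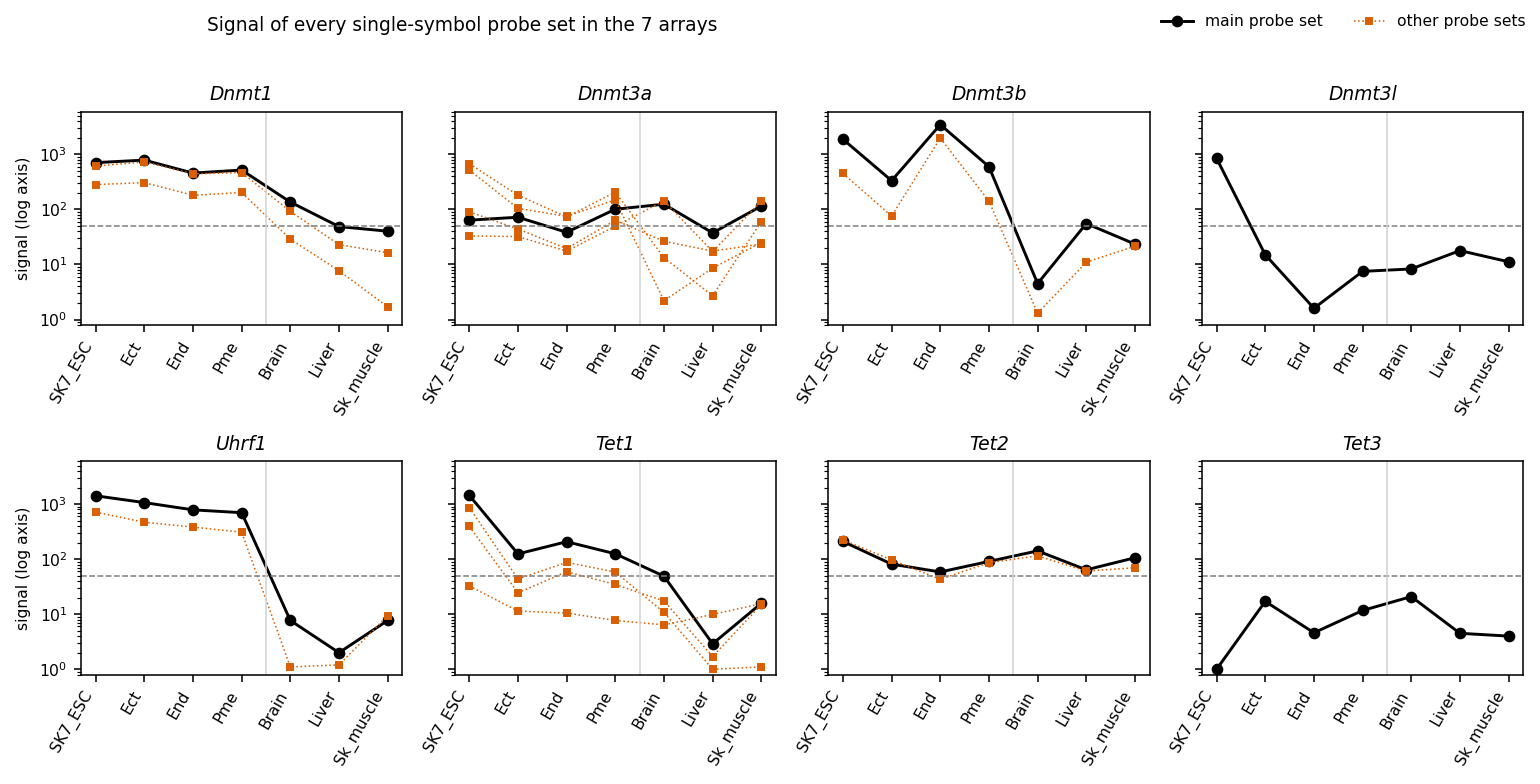
Signal (log axis, signals under 1 drawn as 1) of the 20 single-symbol probe sets of 8 genes in the 7 arrays, 1 array each; black circles are the main probe set of a gene and orange squares its others. The dashed line is the background of 50 and the vertical line parts cultured cells from adult tissues; Dnmt3l crosses the background in SK7_ESC alone, and the lines of Dnmt3a cross each other.

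Dnmt3b, a de novo methyltransferase of the early embryo, was brightest in End. Its main probe set gave 1888.4 in SK7_ESC, 333.4 in Ect, 3480.4 in End, 599.1 in Pme, 4.5 in Brain, 55.5 in Liver and 23.5 in Sk_muscle. Among the germ layers it was 10.4-fold lower in Ect than in End and 5.81-fold higher in End than in Pme, and Ect and Pme were within 2-fold of each other. It was 5.66-fold lower in Ect and 3.15-fold lower in Pme than in ES cells. In Brain and Sk_muscle it was at least 37.8-fold lower than in SK7_ESC, and in Liver, where the signal lay just above background, 34.0-fold lower. The difference between End and SK7_ESC depended on the probe set. It was 1.84-fold with the main probe set, which is not called. With the second probe set, at 1976.9 in End and 451.6 in SK7_ESC, it was 4.38-fold, which is called. That probe set gave 75.9 in Ect, 142.2 in Pme and at most 21.5 in the tissues, the same order of the 4 cultured arrays.

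Among the layer comparisons Dnmt3b was the 1 member of 8 called lower in Ect than in End (3.67% of all genes) and the 1 called higher in End than in Pme (2.56%). Between Ect and Pme, 0 of 8 members were called higher in Ect (2.65%) and 0 lower (3.67%). Genes of the epiblast, the tissue of the embryo from which the germ layers arise, were high in the same array. Apart from Dnmt3b itself, 7 genes of the epiblast list were measured, of which 5 were above background in End, 4 had their highest signal there, 4 were called higher than in SK7_ESC and 1 lower. Summed, they had 6555.5 in End, 1211.9 in SK7_ESC, 705.2 in Ect and 126.5 in Pme. The growth factor gene Fgf5 had 1376.0 in End and 1.4 in SK7_ESC, the homeobox gene Otx2 had 2406.3 and 53.5, and Lefty1, an inhibitor of Nodal signalling, had 2046.6 and 648.7. The gene called lower was Pou3f1, a POU factor gene, with 33.9 in End and 133.0 in SK7_ESC. Pluripotency genes did not share this, since all 8 were called lower in End than in SK7_ESC. Some signal was left, with 4 of the 8 above background in End, against 1 in Ect and 2 in Pme. Tdgf1 had 773.7 and Nanog 299.5 in End, against at most 37.6 and 27.8 in Ect and Pme. Pou5f1 and Sox2 lay just above background in End, at 57.3 and 52.1, and Sox2 had 2368.9 in Ect. Whether End held epiblast-like cells, and what part they would have in its Dnmt3b signal, was not tested.

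Dnmt3a, the de novo methyltransferase that is also known from postnatal tissues, had 2 unlike profiles, depending on the probe set. The main probe set, 1423063_at, gave 63.9 in SK7_ESC, 72.3 in Ect, 38.5 in End, 101.1 in Pme, 124.8 in Brain, 37.5 in Liver and 115.3 in Sk_muscle. With it Dnmt3a was within 2-fold of ES cells in all 6 arrays, and neighbours in the order of levels were within 1.40-fold of each other. It was the 1 member lower in End than in Pme (2.02-fold, at least, against 3.90% of all genes), and 1 of 3 members higher in Brain than in Liver (2.50-fold, at least, against 15.6%). The probe set 1460324_at was also brightest in Brain and Sk_muscle, at 143.9 and 141.4, and was under background in the other 5 arrays, at 32.9 in SK7_ESC and at most 49.7. With it Dnmt3a was at least 2.88-fold higher in Brain and 2.83-fold higher in Sk_muscle than in SK7_ESC. The other 3 probe sets had their highest signal in SK7_ESC. The probe set 1423064_at gave 676.9 in SK7_ESC, 181.7 in Ect, 73.0 in End, 206.6 in Pme, 13.3 in Brain, 2.7 in Liver and 60.2 in Sk_muscle, at least 13.5-fold lower in Brain and Liver than in ES cells. The probe set 1423066_at gave 521.1, 104.5, 75.1, 149.3, 2.2, 8.6 and 25.1 in the same order of arrays. Both were called lower than ES cells in all 6 other arrays. The probe set 1423065_at was dimmer, with 90.6 in SK7_ESC and 63.6 in Pme as the signals above background, and was called in no array. Probe sets of 1 annotated gene thus opposed each other in Brain and Sk_muscle while Liver was under background in all 5. Dnmt3a is known for a short isoform from an internal start in ES cells, but which transcripts each probe set reads was not examined here, since the probe sequences were not used.

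**Figure D3:**
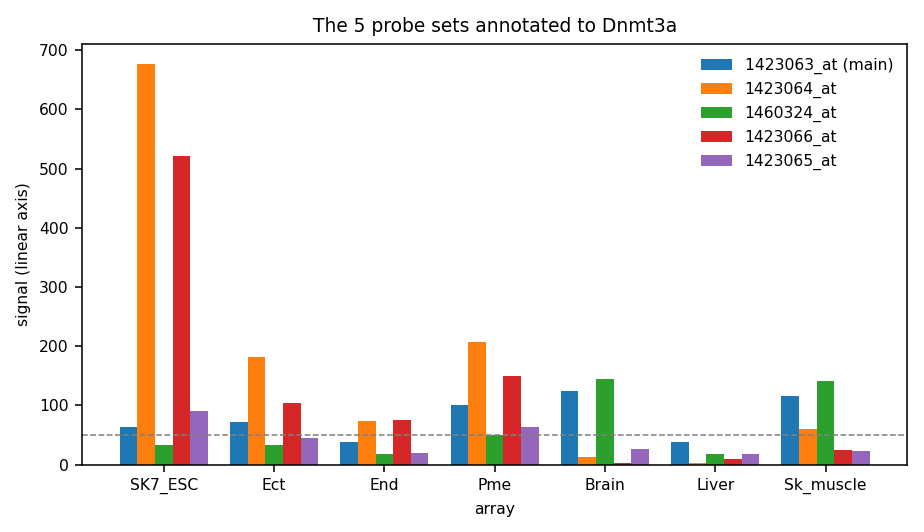
Signal (linear axis) of the 5 probe sets annotated to Dnmt3a in the 7 arrays, 1 bar per probe set and array; the dashed line is the background of 50. The probe sets 1423064_at and 1423066_at reach 676.9 and 521.1 in SK7_ESC, while 1423063_at and 1460324_at are highest in Brain, at 124.8 and 143.9.

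Dnmt1 and Uhrf1, the pair that maintains methylation through cell division, were bright in all cultured cells and low in the tissues. Dnmt1 had 710.2 in SK7_ESC, 788.7 in Ect, 458.6 in End, 520.8 in Pme, 136.3 in Brain, 48.9 in Liver and 40.3 in Sk_muscle. None of the germ layers was called apart from ES cells, and the 4 cultured arrays stood within 1.36-fold of their neighbours in the order. It was 5.21-fold lower in Brain and at least 14.2-fold lower in Liver and Sk_muscle than in SK7_ESC. Brain stood above both other tissues by at least 2.73-fold, and Dnmt1 was the 1 member of 8 called higher in Brain than in Sk_muscle (14.1% of all genes). The other 2 probe sets of Dnmt1 gave the same order of the cultured arrays, with 614.6 and 283.7 in SK7_ESC and 92.5 and 28.9 in Brain, the last under background. With neither of them was Brain called above Liver or Sk_muscle. Uhrf1 had 1420.2 in SK7_ESC, 1068.2 in Ect, 788.0 in End, 700.3 in Pme, 7.7 in Brain, 2.0 in Liver and 7.7 in Sk_muscle. It was at least 28.4-fold lower in each tissue than in ES cells, with no tissue above background. Among the layers it was called lower in Pme (2.03-fold), close to the 2-fold limit, and was no longer called after quantile normalization. Its second probe set gave 716.6 in SK7_ESC, 469.0 in Ect, 383.3 in End, 309.2 in Pme and at most 9.4 in the tissues.

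Higher in all 4 cultured arrays than in all 3 tissues were 4 of the 8 members, Dnmt1 (3.36-fold between the lowest cultured and the highest adult signal), Dnmt3b (6.01-fold), Uhrf1 (at least 14.0-fold) and Tet1 (at least 2.49-fold), against 4.19% of all genes. With a background of 100, with geometric means of the probe sets or with a 3-fold rule, Tet1 was no longer among them. Genes of DNA replication and cell division moved with this difference. Of 11 measured proliferation genes, 10 were higher in all cultured arrays than in all tissues, and their summed signal lay between 14738.2 and 20290.6 in the cultured arrays and between 317.3 and 349.8 in the tissues. The replicative helicase genes Mcm7 and Mcm6 had 3187.0 and 2241.0 in SK7_ESC against at most 127.6 and 57.2 in the tissues, and the ribonucleotide reductase gene Rrm2 had 3435.1 against at most 34.6. The part of the share of dividing cells in the signals of the 4 members was not tested.

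**Figure D4:**
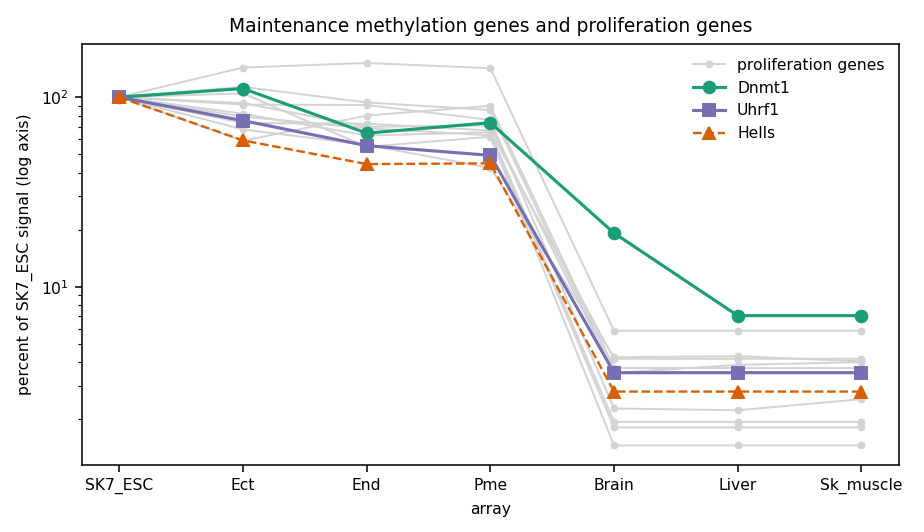
Signal as percent of that in SK7_ESC (log axis, signals under 50 raised to 50) of Dnmt1, Uhrf1 and Hells and of the 10 proliferation genes above background in SK7_ESC, in the 7 arrays, 1 array each. In the tissues values are largely bounds set by the background; Dnmt1, at 136.3 in Brain against 710.2 in SK7_ESC, lies above the other lines there.

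Tet2 had the flattest profile of the Tet enzymes above background. Its signal was 210.1 in SK7_ESC, 81.3 in Ect, 58.6 in End, 91.1 in Pme, 141.5 in Brain, 64.1 in Liver and 106.1 in Sk_muscle, above background in all 7 arrays. It was 2.58-fold lower in Ect, 3.59-fold lower in End, 2.31-fold lower in Pme and 3.28-fold lower in Liver than in ES cells. Brain and Sk_muscle were within 2-fold of ES cells, and Brain was 2.21-fold above Liver. No pair of neighbours in the order differed by more than 1.48-fold. The second probe set gave 224.2 in SK7_ESC, 97.0 in Ect, 43.1 in End, 86.5 in Pme, 114.7 in Brain, 60.8 in Liver and 70.0 in Sk_muscle. With it Sk_muscle was also lower than ES cells, and Brain was within 2-fold of Liver. Both Tet1 and Tet2 had their highest signal in SK7_ESC, and in the tissues Tet1 was under background while Tet2 was above it. Tet3, the Tet enzyme of the oocyte and zygote and of neural tissue, was under background in every array, with 0.9 in SK7_ESC, 17.1 in Ect, 4.6 in End, 11.7 in Pme, 20.9 in Brain, 4.5 in Liver and 4.0 in Sk_muscle. It has 1 probe set, and signals under background have no order, so that nothing is said of its level.

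Tdg could not be measured on its own. All 3 probe sets that name it are annotated jointly to Tdg and the pseudogenes Tdg-ps and Tdg-ps2, and their signals are therefore not assigned to Tdg. The joint probe set with the highest mean had 879.6 in SK7_ESC, 1297.0 in Ect, 1086.1 in End, 710.2 in Pme, 208.3 in Brain, 213.7 in Liver and 199.3 in Sk_muscle, and the other 2 gave the same order of the 4 cultured arrays. In all 3, each cultured array stood above each tissue.

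Among adult tissues, 3 of 8 members were higher in Brain than in Liver with their main probe sets, Dnmt1, Dnmt3a and Tet2 (15.6% of all genes). None was lower (12.0%). These calls depended on the probe set. Further probe sets of Dnmt1 gave 92.5 and 28.9 in Brain and at most 22.9 in Liver, which is not called. The second of Tet2 gave 114.7 and 60.8, also under 2-fold. Of Dnmt3a, 1460324_at went the same way, with 143.9 and 17.2, and the rest were under background in both tissues. With its main probe set alone, Dnmt1 was higher in Brain than in Sk_muscle (14.1%), and 0 members were lower there (12.4%). Between Liver and Sk_muscle, Dnmt3a was lower in Liver (at least 2.31-fold, against 12.1% of all genes) and 0 members were higher (10.6%). No member was called higher in Liver than in either of the other tissues.

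The genes with the most similar profiles were sought by the mean absolute difference of log2 signals over the 7 arrays, each gene minus its own mean, for the 5 members with at least a 4-fold range. The arrays share their platform and scaling, and cultured cells and tissues form separate groups. For Dnmt1 they were Hnrnpd, an RNA-binding protein gene (difference 0.15), Casp8ap2 (0.23) and Odf2 (0.23). For Uhrf1 they were Hells, which encodes a chromatin remodeller that takes part in DNA methylation (0.11), Rcc2 (0.12) and the cyclin gene Ccna2 (0.14). For Dnmt3b they were Sall4, a transcription factor gene of pluripotent cells (0.39), Dbf4, a gene of replication origin firing (0.53), and Lin28a, an RNA-binding protein gene of early embryonic cells (0.55). Sall4 had 2946.8 in End, 1565.4 in ES cells, 1273.6 in Pme and 495.0 in Ect, and at most 2.5 in the tissues. For Tet1 they were Esco2 (0.31), Zfp982 (0.37) and Cox6b2 (0.39). For Dnmt3l they were Morc1, a germ cell gene (0.01), Mymx (0.01) and Mageb16 (0.04), and this likeness says little more than that these genes were above background in SK7_ESC alone.

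Partners of maintenance methylation and replication were for the most part bright in cultured cells and low in the tissues. Beside the counts of called genes in each list stand the shares of all genes called lower than in SK7_ESC, 4.89% in Ect, 3.81% in End, 4.55% in Pme, 15.0% in Brain, 16.0% in Liver and 15.2% in Sk_muscle, and the 4.19% that were higher in all cultured arrays than in all tissues. The shares called higher were between 4.89% and 6.74% in the layers and between 12.2% and 14.9% in the tissues. The lists, like the members, were chosen with earlier results of these data known. Over all genes the median log2 ratio was 0.00 in each comparison, since most signals were under background and were raised to 50. Of 9 partner genes, 7 were higher in all cultured arrays than in all tissues, and 8 were lower than in SK7_ESC in each of the tissues, with a median log2 ratio between -2.75 and -2.44. Hells had 1785.8 in ES cells, between 792.3 and 1056.9 in the layers and at most 13.4 in the tissues. The DNA ligase gene Lig1 had 810.7 in SK7_ESC and at most 36.5 in the tissues, and Cdca7, which encodes a partner of Hells, had 639.5 and at most 12.7. Against the direction of the list, Uhrf2, the paralog of Uhrf1, was higher in all 3 germ layers, from 150.0 in ES cells to 481.9 in Pme, 360.8 in End and 332.9 in Ect, and it was within 2-fold of ES cells in the tissues. Of 10 targeting and heterochromatin genes, 0 were higher than in SK7_ESC in any array, 2 were lower in each germ layer, 6 in Brain and 9 in both Liver and Sk_muscle. The 2 that were lower in the layers, named after their values were seen, were Dppa3, a maternal factor gene that guards methylation, with 252.4 in SK7_ESC and at most 18.7 elsewhere, and Zfp57, a zinc finger gene of imprint maintenance, with 104.2 and at most 49.5. Trim28, the corepressor that Zfp57 recruits, had 3662.7 in SK7_ESC, between 2451.1 and 2990.7 in the germ layers and between 303.4 and 423.9 in the tissues. The heterochromatin protein gene Cbx5 had 694.2 in SK7_ESC, 70.6 in Liver and 149.4 in Sk_muscle, while Brain, at 617.5, was within 2-fold of ES cells. Cbx1 had 1782.1 in SK7_ESC and between 291.8 and 347.5 in the tissues.

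Genes listed as readers of methylated DNA or of their families had no common direction. Of 7 measured genes of this list, 0 were higher in all cultured arrays than in all tissues. In Brain 3 were higher and 2 lower than in SK7_ESC, with 3 and 2 in Liver, and 4 and 2 in Sk_muscle. Binding to methylated DNA was not examined here for any of them. Zbtb4, a zinc finger protein gene, had 17.7 in SK7_ESC, 94.6 in Pme, 486.2 in Brain and 267.0 in Sk_muscle. Mbd1 had 51.3 in SK7_ESC and 435.1 in Liver, and Mbd2 had 72.1 in SK7_ESC, 209.4 in Pme and 265.5 in Sk_muscle. Zbtb33, a gene of a methyl-CpG binding zinc finger protein, was higher in all 3 layers, at 279.0 to 506.4 against 118.6 in SK7_ESC. The 2 lower in the tissues were Mbd3, with 232.8 in SK7_ESC and at most 103.1 there, and the glycosylase gene Mbd4, with 170.8 and at most 71.3.

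Of 10 base excision repair genes, which hold other glycosylases and the enzymes that act after them, 1 was lower in each germ layer, 5 in Brain, 4 in Liver and 4 in Sk_muscle, and 3 were higher in all cultured arrays than in all tissues, and with 1 gene per layer the list does not stand apart from all genes there. The gene lower in each layer was the uracil glycosylase gene Ung, with 675.1 in ES cells, between 225.6 and 279.3 in the layers and at most 158.8 in the tissues. Parp1 had 1764.1 in SK7_ESC and at most 414.9 in the tissues. Against this direction, the repair polymerase gene Polb had 250.9 in SK7_ESC and 992.3 in Sk_muscle, and the glycosylase gene Neil3 had 39.5 in SK7_ESC and 211.5 in Pme. Of 6 deaminase and Gadd45 genes, 3 were called lower than ES cells in Ect, 3 in End and 2 in Pme. Apobec2, a muscle deaminase family gene, had 6236.5 in Sk_muscle and at most 86.4 elsewhere, and Apobec1, which edits RNA, had 434.3 in Liver and at most 50.3 elsewhere. Gadd45g had 706.6 in Ect, 778.5 in Liver, 722.9 in Sk_muscle and 126.0 in Pme, against 50.3 in ES cells, 77.1 in Brain and 26.8 in End.

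Enzymes that supply the cofactors differed by tissue. Of 8 Tet partners and cofactor enzymes, 1 was higher than in ES cells in each layer, and 1 was lower in Ect and in Pme. The higher ones were the CXXC protein genes Cxxc4, at 118.9 in Ect and 3.7 in SK7_ESC, and Cxxc5, at 477.2 in End, 391.5 in Pme and 169.9 in SK7_ESC. The isocitrate dehydrogenases make 2-oxoglutarate, on which Tet enzymes depend. Idh1 had its highest signal in Liver, at 4174.5, and Idh2 and Idh3a in Sk_muscle, at 1101.0 and 7746.7, against 1178.0, 716.2 and 1565.1 in SK7_ESC. Of 11 genes of the methyl donor cycle, which makes the S-adenosylmethionine that the Dnmt enzymes use, 7 had their highest signal in Liver and 5 were called higher there than in SK7_ESC. Against this direction, 2 were called lower in Liver. Mat2b had 224.8 there and 615.0 in SK7_ESC, and Mtr had 17.3 and 169.8. In Brain 1 was higher and 4 were lower than in SK7_ESC, with 1 and 4 in Sk_muscle. Bhmt, Gnmt and Mat1a, enzymes of methionine metabolism in hepatocytes, had 11301.1, 8152.2 and 6001.0 in Liver and 16.4, 33.1 and 5.8 in SK7_ESC. In the germ layers 0 genes of this cycle were higher than in ES cells, and between 1 and 2 were lower per layer.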

How the data were processed

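Total RNA of 7 samples was hybridized by the authors to Affymetrix mouse genome arrays. The deposited intensity values are linear signals, 1 for each of 45101 probe sets, after global normalization by the authors. The paper gives this as an average signal of 100. The plain mean lay between 141.2 in Brain and 204.2 in Sk_muscle. With 2% of values trimmed at each end, the mean was 100.0 in each array. How probes were summarized into probe sets is not stated in the sources read. The labels name an RNA kit that differs from the methods. Probe sets were named from the platform annotation: 34958 had 1 gene symbol, 932 had several and 9211 were unnamed. By Entrez identifier, 34754 matched the RefSeq gene table of GRCm38.p6. Signals under 0.1 were raised to it before log2, and each gene took the probe set brightest by mean log2.

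With 1 array per condition, a ratio of 2 with a background of 50 was called and no statistical test was run. The members and lists were chosen with earlier results of these data known. All members are named, and of each pathway list the 3 genes with the largest range and those called against its direction. Of the proliferation list the 3 with the highest mean log2 signal are named, and of marker lists those used to check a label. Pax6, Nes, Lefty1, Pou3f1, Tdgf1, Nanog, Pou5f1, Sox2, Dppa3 and Zfp57 were added after their values were seen. Alternatives were backgrounds of 20 and 100, quantile normalization, equal medians, geometric means, no probe sets with shared sequence and a 3-fold rule. The code of the call rule was checked on simulated data, with known folds put into bright genes and an assumed noise. That check does not measure how precise the calls on these arrays are. Python 3.11.15, numpy 2.4.6, pandas 2.3.3 and matplotlib 3.10.9 were used. Protein sequences and DNA methylation were not analysed here.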

Additional observations from a re-analysis of the deposited data

Results flagged for a closer look

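Dnmt3b was called in opposite directions against ES cells with its second probe set (451.6 in SK7_ESC). It was 4.38-fold higher in End, at 1976.9, and lower in Ect and Pme, at 75.9 and 142.2, so that the ratio to ES cells differed by 26.0 times between End and Ect and by 13.9 times between End and Pme. Against Brain, Liver and Sk_muscle, all under background with this probe set, the difference was at least 39.5 times. With 1 array per condition the differences were not tested. With the main probe set, Dnmt3b was within 2-fold of ES cells in End.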

How the results depend on the processing

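No paired analysis was possible because each condition had 1 array, which also left no replicate to leave out. Of 318 ratios of single members to SK7_ESC under the alternatives, 304 kept their call and 14 did not, and 0 called ratios changed sign. These totals include ratios that could not change. The 30 without shared-sequence probe sets rest on the same main probe sets as before, and Tet3 was at most 20.9 in any array. The totals are therefore no measure of how stable the calls are. Backgrounds of 20 and 100 changed no call of a member against SK7_ESC, but a background of 100 took Tet1 from the members higher in all cultured arrays than in all tissues, as did geometric means and the 3-fold rule, leaving 3 of 4. Members higher in End than in SK7_ESC were 1 instead of 0 after quantile normalization and 1 with geometric means, in both cases Dnmt3b. After quantile normalization Uhrf1 was no longer called in Pme (-0.93 on the log2 scale), which left 4 members lower there instead of 5. Without probe sets whose identifiers end in _x_at, _s_at or _a_at, 5 members were left, since Dnmt1, Dnmt3b and Dnmt3l have no others. Those lower than in SK7_ESC were then 2 in Ect, 3 in Pme, 2 in Brain, 3 in Liver and 2 in Sk_muscle, and those higher in all cultured arrays than in all tissues were 2. With the 3-fold rule, 3 members were lower in Pme, where Uhrf1 and Tet2 were no longer called. With geometric means Dnmt3a was lower than in SK7_ESC in 5 of the other arrays, Pme being the exception. Equal medians moved the median log2 difference of all genes from SK7_ESC from 0.15 to -0.53 in Brain, where the share of higher among called genes went from 49.9% to 30.5%, and Tet2 was then called lower in Brain and Sk_muscle (-1.25 and -1.28 on the log2 scale). These shares were 41.7% instead of 57.5% in Ect and 43.2% instead of 59.7% in Pme. Folds against signals under background scale with the background by construction. Genes called in 1 direction against SK7_ESC numbered from 693 to 2913 per comparison, and with the 3-fold rule from 256 to 1765, so that the shares of all genes given beside the members fall with it as well.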
